A study of Rattus norvegicus with 7 samples.

Results

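Resistin-like molecules are small, cysteine-rich secreted proteins, and intelectin 1 is a secreted lectin; their genes were followed in epithelial crypts of the rat colon. The genes were taken by symbol from the deposited RNA table as Retn, Retnla, Retnlb, Retnlg and Itln1. All 5 were listed among 16468 genes. The 3 leading ones, Retnla, Retnlb and Itln1, were chosen by their measured FPKM in these same libraries, which was higher in the distal one, so that difference is described here and not tested. Crypts, the epithelial pits that hold stem, absorptive, goblet and hormone-producing cells, came from the distal and the proximal colon of Sprague Dawley rats at 14 weeks of age. Sprague Dawley is an outbred laboratory strain, and no treatment or genetic change is given in the labels for either region. For each region the material of 7 rats was pooled into 1 RNA library. There was therefore no spread between replicates, and every difference compares these 2 libraries only. Below, "distally" refers to the distal library and "proximally" to the proximal one.

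Resistin itself, the product of Retn, is a hormone of fat cells in rodents. RELM-beta, the product of Retnlb, is released by colonic goblet cells into the mucus, where it acts on bacteria, and in mice it is induced by the gut microbiota and by the type 2 cytokines of worm infection. RELM-alpha, the product of Retnla, is best known in mice as a product of macrophages and airway epithelium under the same cytokines, and RELM-gamma, the product of Retnlg, as a product of blood-forming tissue and granulocytes in rodents. Intelectin 1 binds sugars found on microbial surfaces and is made in the mouse gut by goblet cells and by Paneth cells, the antimicrobial cells of small intestinal crypts.

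Itln1, Retnla and Retnlb were abundant in both regions and higher in the distal library, while Retnlg was near the low end and Retn was listed at 0. Levels are given in FPKM, which scales fragments by the length of the transcript and the size of the library, so levels of different genes can be set side by side. Together Itln1, Retnla and Retnlb summed to 6083 FPKM in the distal library, 1.31% of its summed FPKM, and to 849 FPKM in the proximal library, 0.206% of its summed FPKM. The sum was 7.17-fold higher in the distal library. In such mixed samples, a difference in the number of cells that make a transcript and a difference in the amount of it per cell cannot be told apart.

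**Figure D1:**
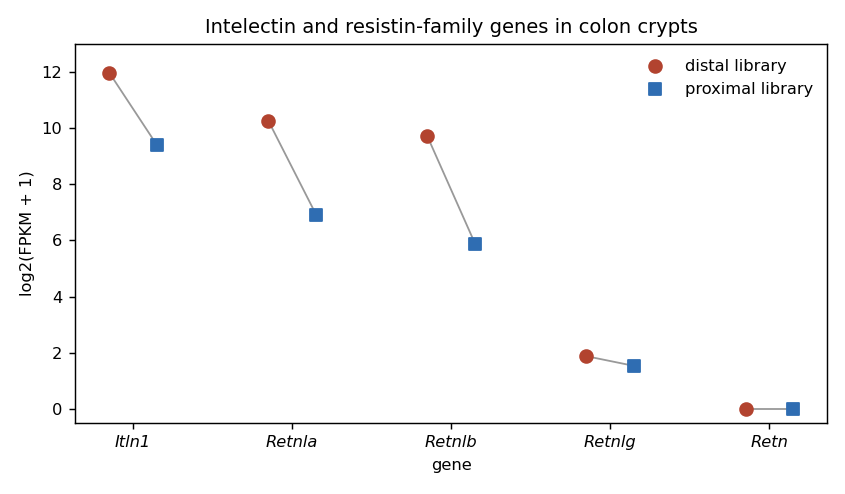
Level of each gene as log2(FPKM + 1) on the vertical axis, with the distal library as circles and the proximal library as squares, 1 library each and no error bars. Itln1, Retnla and Retnlb stand higher in the distal library, the marks of Retnlg lie close together at 2.66 and 1.88 FPKM in the distal and proximal library, and Retn is at 0 in both.

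Retnla stood at 1226 FPKM in the distal library and at 120.1 FPKM in the proximal library, a plain ratio of 10.2. In the rn4 build its gene spans 53205246 to 53206745 of chromosome 11. It ranked at place 32 among all genes by level in the distal library and at place 596 in the proximal library. In the authors' deposited table its log2 fold change was 3.35, for which the test statistic implied a standard error of 0.34. That error comes from the model behind the table and holds no variation between rats.

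Retnlb stood at 834 FPKM in the distal library and at 57.8 FPKM in the proximal library, a plain ratio of 14.4. Its gene lies next to Retnla, at 53226992 to 53228878 on chromosome 11 of rn4, and ranked at place 58 in the distal and place 1387 in the proximal library. Its log2 fold change in the authors' deposited table was 3.85, and the error implied in the same way was 0.38. Retnla was the more abundant of the pair in both regions, at 1.47 times the Retnlb level in the distal library and 2.08 times in the proximal library. The log2 fold changes of Retnlb and Retnla in the authors' deposited table were 0.50 apart, less than their combined implied error of 0.51.

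Itln1, on chromosome 13 at 87445119 to 87455224 of rn4, stood at 4023 FPKM in the distal library and at 671 FPKM in the proximal library, a plain ratio of 5.996. It was the second most abundant transcript of the distal library at 0.868% of the summed FPKM, behind Txn1, the antioxidant protein thioredoxin, at 5132 FPKM distally and 1666 FPKM proximally. In the proximal library it ranked at place 61. In the authors' deposited table the log2 fold change of Itln1 was 2.58, its implied error 0.68 and its q 0.00431. That implied error was above the median of 0.31 for 4413 tested genes with at least 20 FPKM in 1 library. Its log2 fold change in the authors' deposited table was below that of Retnlb by 1.27, with a combined implied error of 0.78, and below that of Retnla by 0.77, with a combined implied error of 0.76.

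Retnlg, on chromosome 11 at 53174617 to 53175956 of rn4, stood at 2.66 FPKM in the distal library and at 1.88 FPKM in the proximal library. Retnla was 460-fold more abundant than Retnlg in the distal library and 63.8-fold in the proximal library. The authors' deposited table put the log2 fold change of Retnlg at 0.50, with an implied error of 1.06, more than the difference itself, so the regions were not distinguishable for this gene. Retn, on chromosome 12 at 2499630 to 2501370 of rn4, was listed at 0 FPKM in both libraries and was not tested in that table. Retnla, Retnlb and Retnlg are related in sequence, and how reads matching several of them were counted is not stated in the labels or the table.

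Sequence around the start sites was taken from RefSeq, build GRCr8, for all 5 genes, as windows of 250 bases before and 50 bases from the start site. Positions are counted from 0 at that start, negative upstream. They belong to GRCr8 and are not comparable with the rn4 positions above. Among the family genes higher distally, Retnlb and Itln1 held matches to motifs of transcription factors reported to act on these or on goblet genes. Their windows are shown, with the matches in capitals:
Retnlb, chr11:65448270-65448569, - strand: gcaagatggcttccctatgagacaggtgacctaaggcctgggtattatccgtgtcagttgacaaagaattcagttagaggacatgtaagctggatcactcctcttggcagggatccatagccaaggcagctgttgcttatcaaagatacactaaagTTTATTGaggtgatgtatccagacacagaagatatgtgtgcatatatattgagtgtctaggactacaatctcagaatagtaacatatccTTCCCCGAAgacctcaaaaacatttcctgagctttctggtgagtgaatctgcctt
Itln1, chr13:86480298-86480597, + strand: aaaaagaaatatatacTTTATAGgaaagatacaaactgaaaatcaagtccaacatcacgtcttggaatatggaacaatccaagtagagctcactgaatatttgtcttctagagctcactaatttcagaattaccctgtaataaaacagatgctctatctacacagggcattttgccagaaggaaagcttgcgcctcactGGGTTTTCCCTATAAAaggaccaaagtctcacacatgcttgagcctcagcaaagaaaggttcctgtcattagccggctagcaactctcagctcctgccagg

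In the Retnlb window TTTATTG at positions -94 to -88 matched TTTATNG, a form of the site bound by CDX factors, which 11.3% of 33469 windows of the same length held. TTCCCCGAA at positions -5 to 3 matched TTCNNNGAA, a form of the STAT dimer site, held by 8.87% of windows. The Itln1 window held TATAAA at positions -41 to -36, as did 14.2% of windows on either strand, and GGGTTTTCC at positions -51 to -43 matched GGGNNTTCC, a form of the NF-kappaB site held by 5.92%. Its matches to TTTATNG, at positions -234 to -228 and -42 to -36, overlap matches to TATAAA, and the second adjoins the NF-kappaB match, so that their capitals run together. All motifs were searched on both strands, and the others were TTC and GAA with 4 bases between them, held by 7.28%, TTTATGG, held by 3.07%, GGG and TTTCC with 2 bases between them, held by 1.53%, and TTGCNNAA, a form of the C/EBP site, held by 10.6%. The Retnla window held no match to any of the 8, the Retnlg window held TTC and GAA with 4 bases between them at positions -111 to -102, and the Retn window held GGG and TTTCC with 2 bases between them at positions -120 to -111. A match describes letters in a window and does not show that a factor is bound.

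The windows of Retnla and Retnlg are shown because the 2 genes are neighbours at very different levels and share a segment, whose identical bases are in capitals:
Retnla, chr11:65426137-65426436, - strand: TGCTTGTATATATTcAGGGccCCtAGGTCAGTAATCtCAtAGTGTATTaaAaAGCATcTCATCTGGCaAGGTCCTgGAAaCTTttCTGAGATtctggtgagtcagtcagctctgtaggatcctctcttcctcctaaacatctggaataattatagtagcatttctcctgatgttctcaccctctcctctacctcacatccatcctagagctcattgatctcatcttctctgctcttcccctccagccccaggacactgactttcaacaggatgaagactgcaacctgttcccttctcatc
Retnlg, chr11:65395590-65395889, - strand: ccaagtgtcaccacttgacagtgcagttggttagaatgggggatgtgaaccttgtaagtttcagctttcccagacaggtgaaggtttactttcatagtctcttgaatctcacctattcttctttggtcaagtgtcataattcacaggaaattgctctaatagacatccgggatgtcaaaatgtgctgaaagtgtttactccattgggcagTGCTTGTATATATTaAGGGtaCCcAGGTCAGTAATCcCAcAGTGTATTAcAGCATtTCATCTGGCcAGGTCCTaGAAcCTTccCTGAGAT

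The shared segment had 77 identical bases in 92 aligned columns, 83.7% identity. It lies at positions -250 to -159 in the Retnla window and at -40 to 49 in the Retnlg window. It thus spans the start used for Retnlg and lies upstream of the start used for Retnla. The start used for Retnla is 298 bases inside the 5′ end of its RefSeq record, which holds 2 transcripts, and the part of that record further upstream is only partly in the window. The segment therefore lies within the Retnla record. Its place in the window depends on the start chosen and is not read as a difference between the promoters. Retnla and Retnlb shared a shorter stretch, 23 identical bases in 27 columns, at positions -173 to -149 in Retnla and 12 to 38 in Retnlb. The other 8 pairs of windows had best local alignments of at most 11 columns. The start used for Itln1 likewise lies 15907 bases inside its RefSeq record, so other start sites of both genes were not searched.

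**Figure D2:**
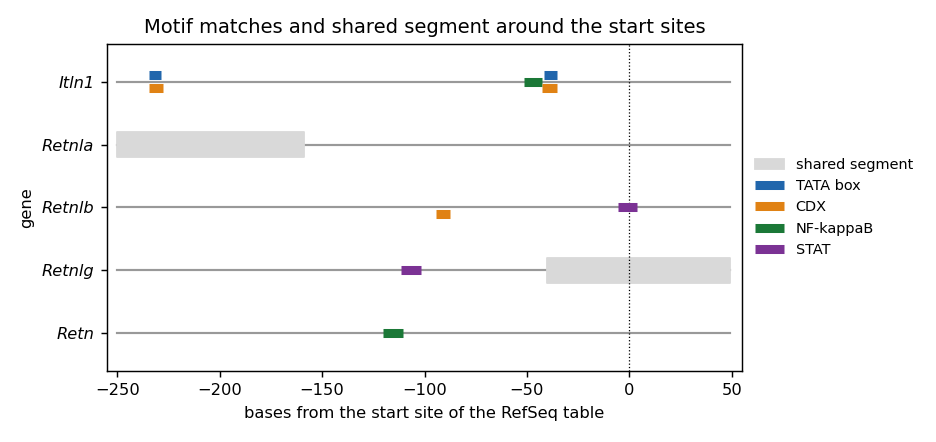
Each line is the window around 1 start site, with bases from the start on the horizontal axis, coloured blocks for motif matches on either strand and grey blocks for the segment shared by Retnla and Retnlg. The grey block crosses the start used for Retnlg and ends upstream of the start used for Retnla, which lies inside its RefSeq record. The Retnla window has no coloured block.

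For all genes a log2 ratio, distal over proximal, was taken from FPKM + 1, a scale on which differences of low genes come out too small. A gene was called measured with at least 1 FPKM in 1 library. The ratio was 3.83 for Retnlb, 3.34 for Retnla, 2.58 for Itln1 and 0.35 for Retnlg. Among 9847 measured genes the median was 0.09, and 25 genes had a larger ratio than Retnlb, 33 than Retnla and 51 than Itln1. Of the 4 measured genes of the families, 3 were higher in the distal library by at least 2-fold, set against 3.71% of all measured genes, and none was 2-fold lower, set against 3.91%. In both directions together 7.62% of measured genes were that far apart. The authors' deposited table called the same 3 higher in the distal library, where it called 2.73% of its tested rows. Nothing is read from these shares, since the contrast chose the genes.

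**Figure D3:**
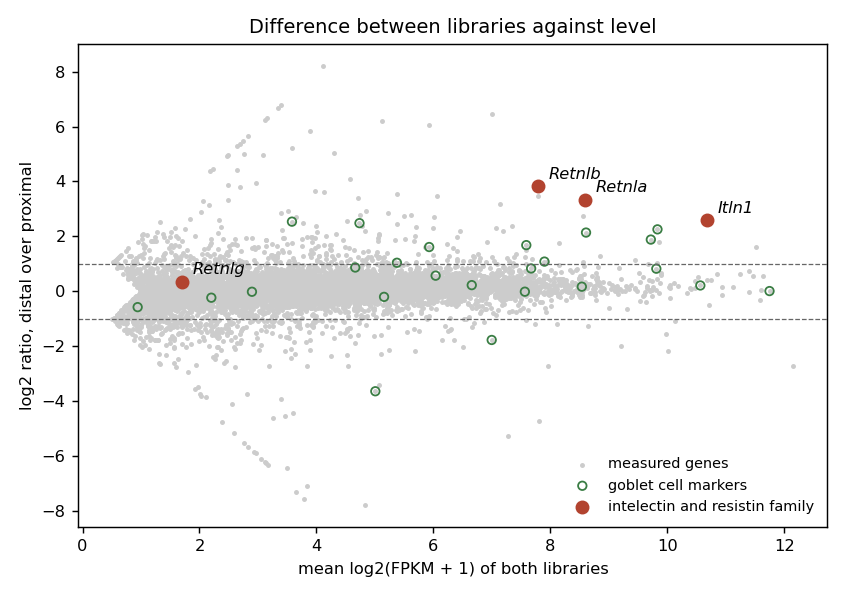
Each grey point is 1 measured gene, with the mean log2(FPKM + 1) of both libraries on the horizontal axis and the log2 ratio of distal over proximal on the vertical axis, and dashed lines mark 2-fold. Retnla and Retnlb, filled red points, lie above the goblet cell markers, green rings; Itln1 lies level with the highest of them, whose order with Itln1 turns when plain ratios are used, and Retnlg lies between the dashed lines.

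Goblet cells make the colonic mucus and are the known source of RELM-beta, so a list of goblet cell markers was set beside the family. Of 24 measured markers, 9 were 2-fold or more higher distally and 2 lower, set against 3.71% and 3.91% of all measured genes. Their median log2 ratio was 0.69 against 0.09 for all measured genes. Retnlb and Retnla each had a larger ratio than all 24 of them, on the FPKM + 1 scale and as plain ratios. For Itln1 this held on the FPKM + 1 scale only: 2 markers, Muc1 at 7.01 and Rep15 at 6.03, had a larger plain ratio than its 5.996, and 1 of them, Muc1, was also above it with a pseudocount of 0.1 FPKM. The markers furthest to the distal side were Muc1, a membrane mucin, at 27.8 FPKM distally and 3.97 FPKM proximally, and Rep15, a vesicle-traffic protein, at 62.0 FPKM distally and 10.3 FPKM proximally. Reg4, a secreted lectin, was the furthest the other way, at 8.08 FPKM distally and 113 FPKM proximally. Itln1 was more abundant than every measured goblet marker in the distal library, and 3 of them stood above it in the proximal library.

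Levels relative to secreted goblet products within the same library do not depend on how the libraries were scaled. The products used below all stood higher in the distal library. Reg4 and Spink4, goblet markers that stood lower there, were not used. Spink4 stood at 68.0 FPKM distally and 236 FPKM proximally. Retnla stood at 1.496 times the level of Fcgbp, a large mucus protein, in the distal library and at 0.647 times in the proximal library. Retnlb stood at 1.02 times Fcgbp in the distal and 0.312 times in the proximal library. Itln1 stood at 4.91 times Fcgbp in the distal and 3.62 times in the proximal library, a change of 1.36-fold. Against Clca1, a secreted protease of mucus, the change was 2.14-fold for Retnla, 3.02-fold for Retnlb and 1.25-fold for Itln1. Fcgbp itself stood at 819.5 FPKM distally and 185 FPKM proximally, and Clca1 at 1992 FPKM distally and 417 FPKM proximally. Against 2 other secreted goblet products the changes were larger. They were 2.77-fold for Retnla, 3.91-fold for Retnlb and 1.62-fold for Itln1 against Tff3, and 5.78-fold, 8.16-fold and 3.39-fold for the same genes against Zg16. Tff3 stood at 1618 FPKM distally and 438 FPKM proximally. No error was computed for these ratios, and the implied error of Itln1 alone was 0.68 on the log2 scale. The authors' deposited table called Tff3 different between the regions, but not Fcgbp, Clca1 or Zg16. Against Agr2, a folding enzyme of the goblet secretory pathway that stood less than 2-fold apart, the change was 8.83-fold for Retnla, 12.5-fold for Retnlb and 5.19-fold for Itln1.

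The genes nearest in level over the 2 libraries, by distance in log2(FPKM + 1), were partly goblet products. For Itln1 the nearest were Clca1, at a distance of 1.22, the surface protein gene Cd24 at 1.30 and Txn1 at 1.36. Retnla was nearest to Adh1, an alcohol dehydrogenase, at a distance of 0.44, then to Fcgbp at 0.85 and to Nov, a secreted matrix-associated protein, at 1.14. For Retnlb the order was Nov at 0.26, the chemokine gene Ccl6 at 1.03 and Retnla at 1.18. Nov stood at 732 FPKM distally and 65.6 FPKM proximally, and Adh1 at 972 FPKM distally and 146 FPKM proximally. Retnlg had many neighbours at its low level, of which Rad18, Ankrd39 and Sdccag8 were closest, all within 0.032.

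Ligands and receptors of the type 2 cytokine pathway, which induces Retnlb and Retnla in mice, showed no common direction. Of 20 listed genes 10 were measured, and their median log2 ratio was 0.02. Of these, 1 was 2-fold or more higher distally and 2 lower, set against 3.71% and 3.91% of all measured genes. The cytokine genes Il4, Il5 and Il9 were listed at 0 in both libraries, and Il13 at 0 FPKM distally and 0.327 FPKM proximally. The receptor subunit Il4ra stood at 21.9 FPKM distally and 20.8 FPKM proximally, and Il13ra1 at 9.08 FPKM distally and 6.32 FPKM proximally. Stat6, the transcription factor downstream of both receptors, stood at 33.4 FPKM distally and 37.0 FPKM proximally. Il33, an epithelial alarm cytokine, was the member higher in the distal library, at 6.59 FPKM distally and 1.94 FPKM proximally. The lower ones were Il2rg, at 1.85 FPKM distally and 7.56 FPKM proximally, and Jak3, at 1.19 FPKM distally and 3.86 FPKM proximally, both of lymphocyte cytokine signalling.

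Other genes that interleukin 4 or 13 induces in rodents were mostly low. Of 20 listed, 5 were measured. Of those, 2 were 2-fold or more higher distally and none lower, set against 3.71% and 3.91% of all measured genes. With the distal library rescaled to the same upper quartile as the proximal one, 1 was lower. Besides Clca1, the higher gene was Arg1, an arginase of macrophages and other cells, at 1.86 FPKM distally and 0.245 FPKM proximally. Chia, Chi3l3, Ccl17, Cd209a and Ear11 were listed at 0 in both libraries. Apart from Clca1 and Cdh1, the highest of the list was Pparg, at 32.4 FPKM distally and 61.3 FPKM proximally.

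Transcription factors reported to act on these genes or on goblet genes were mostly less than 2-fold apart, as were most measured genes. Of 17 measured members 2 were higher in the distal library, set against 3.71% of all measured genes, and none was lower. Their median log2 ratio was 0.28. The higher ones were Foxa2, at 40.5 FPKM distally and 8.76 FPKM proximally, and Klf4, at 356 FPKM distally and 171 FPKM proximally. Klf4, a factor of goblet cell differentiation, came under 2-fold under both rescalings of the libraries, which set either the median log2 ratio to 0 or the upper quartiles equal. With equal upper quartiles 1 member was higher and 1 lower distally. Cdx2, an intestinal master regulator, stood at 369.6 FPKM distally and 342 FPKM proximally. Atoh1 and Spdef, factors of the secretory lineage, were also less than 2-fold apart, Atoh1 at 79.0 FPKM distally and 53.1 FPKM proximally and Spdef at 108 FPKM distally and 92.5 FPKM proximally.

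Proposed receptors and partners of the secreted proteins were mostly present in the crypts, and the median log2 ratio of 7 measured members was 0.38. Of these, 1 was 2-fold or more higher distally and none lower, set against 3.71% and 3.91% of all measured genes. Tlr4, the lipopolysaccharide receptor that has been proposed to bind resistin, stood at 38.3 FPKM distally and 11.8 FPKM proximally. Cap1, a proposed receptor of human resistin, stood at 184 FPKM distally and 139 FPKM proximally. Ltf, the gene of lactoferrin, an intelectin ligand, was listed at 0 in both libraries.

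Most other soluble lectins were not 2-fold higher distally, which was also so for most measured genes. Of 12 measured lectin genes besides Itln1, 1 was 2-fold or more higher distally and 4 lower. Among all measured genes 3.71% were higher and 3.91% lower. The median log2 ratio of the 12 lectin genes was -0.19. Zg16, a goblet lectin that binds bacteria, stood at 1195 FPKM distally and 676 FPKM proximally. The single gene on the distal side was Fcn1, a ficolin, at 31.2 FPKM distally and 10.1 FPKM proximally. Reg3g, an antimicrobial lectin, lay far on the other side, at 0.925 FPKM distally and 425 FPKM proximally.

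**Figure D4:**
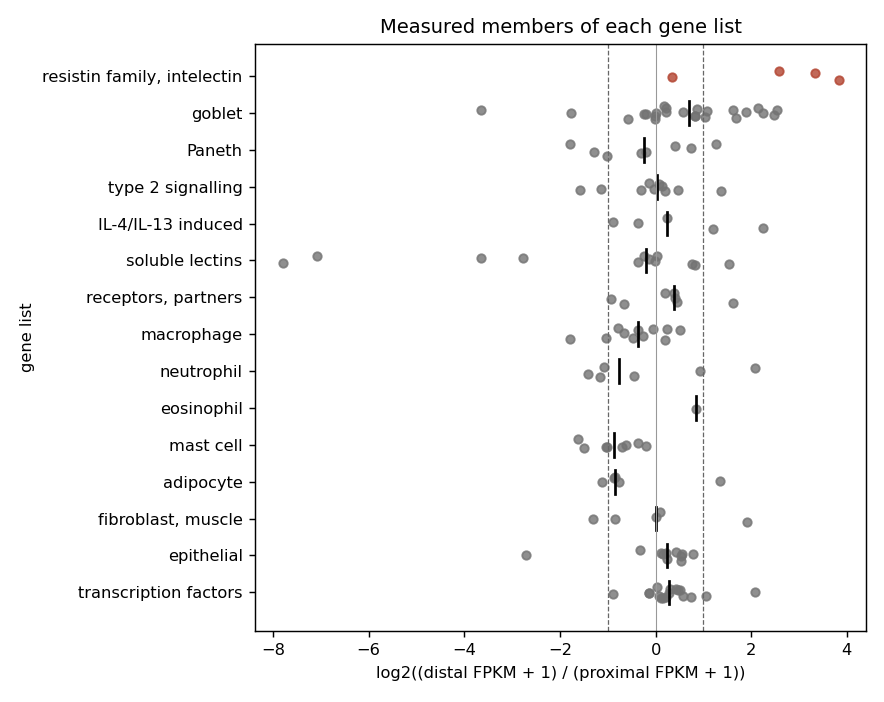
Each point is 1 measured gene of a list, placed by its log2 ratio of distal over proximal on the horizontal axis, with the median of each list, but not of the families, as a black bar and dashed lines at 2-fold; Itln1 is left out of the soluble lectins. The goblet list has its median at 0.69 and reaches less far to the distal side than Retnla and Retnlb; Itln1, at 2.58, is close to its furthest marker, Muc1, at 2.54, and is passed by it when plain ratios are used.

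Cells other than goblet cells were checked through their markers. For the counts here and in the cell types that follow, 3.71% of all measured genes were 2-fold or more higher distally and 3.91% lower. Epithelial markers were abundant in both regions, with Epcam at 1990 FPKM distally and 1490 FPKM proximally and Krt8 at 3436 FPKM distally and 2328 FPKM proximally. Of 11 measured epithelial markers none was 2-fold or more higher distally and 1 was lower, the carbonic anhydrase Car1, at 1781 FPKM distally and 11730 FPKM proximally. Some markers of macrophages, the mouse source of RELM-alpha, were absent or very low and others were detected. Emr1 and Cd163 were listed at 0 in both libraries, and Csf1r stood at 0.516 FPKM distally and 0.939 FPKM proximally. The 23 listed macrophage markers summed to 416 FPKM distally and 384 FPKM proximally, mostly from Ctss, at 271 FPKM distally and 230.4 FPKM proximally, and Cd14, at 116 FPKM distally and 101 FPKM proximally, which epithelium also expresses. The other 21 summed to 29.6 FPKM distally and 52.2 FPKM proximally, a split made after the values were seen. Of 11 measured macrophage markers 2 were at least 2-fold lower in the distal library and none higher. The lower ones were Lyz2, at 2.50 FPKM distally and 11.1 FPKM proximally, and Tyrobp, at 4.84 FPKM distally and 10.9 FPKM proximally. Less than 2-fold apart were Cd68, at 2.30 FPKM distally and 2.98 FPKM proximally, and C1qc, at 4.62 FPKM distally and 2.97 FPKM proximally. The part of macrophages in the Retnla level was not tested.

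Eosinophil, neutrophil and, apart from Pck1, fat cell markers were also low. The 10 listed eosinophil markers summed to 1.88 FPKM distally and 1.77 FPKM proximally, and the only measured one, Prg2, was less than 2-fold apart on the FPKM + 1 scale. The 15 listed neutrophil markers summed to 10.9 FPKM distally and 13.6 FPKM proximally, and of 6 measured ones 1 was 2-fold or more higher and 3 were lower distally. The higher one was S100a8, at 3.19 FPKM distally and listed at 0 proximally. Adipoq, the defining fat cell hormone, stood at 0.320 FPKM distally and 0.577 FPKM proximally, beside Retn at 0. Of 5 measured fat cell markers 1 was 2-fold or more higher distally and 1 lower. The higher one, Pck1, is also an enzyme of gut epithelium. It made up most of the list's sum of 278 FPKM distally and 122 FPKM proximally. Without it the 10 listed fat cell markers summed to 7.32 FPKM distally and 16.2 FPKM proximally, a split made after the values were seen.

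Of 8 measured mast cell markers 4 were 2-fold or more lower distally and none higher, set against 3.91% and 3.71% of all measured genes. The summed level of the listed mast cell markers was 169 FPKM distally and 366 FPKM proximally. They ran opposite to Retnla, Retnlb and Itln1, and their part in the result was not tested. Of 5 measured fibroblast and muscle markers 1 was at least 2-fold higher and 1 lower distally; the higher was Des, an intermediate filament of muscle, at 2.91 FPKM distally and 0.0398 FPKM proximally. The sum of the 11 listed was 16.8 FPKM distally and 21.8 FPKM proximally. Paneth cell markers, which matter for Itln1, were split, with 1 of 8 measured ones 2-fold or more higher and 3 lower distally. The 11 listed summed to 177 FPKM distally and 147 FPKM proximally. The most abundant distally were Pla2g2a, a secreted phospholipase, at 94.6 FPKM distally and 56.6 FPKM proximally, and Ang1, an angiogenin whose listed position overlaps that of a neighbouring gene, at 44.8 FPKM distally and 18.1 FPKM proximally. The 3 lower ones were Lyz2 and the defensins Defa8 and Defa24. Lyz2 stood at 2.50 FPKM distally and 11.1 FPKM proximally and was the only one of the list called in the authors' deposited table. Its listed position overlaps that of another gene. Defa8 stood at 8.80 FPKM distally and 23.0 FPKM proximally and Defa24 at 10.01 FPKM distally and 21.3 FPKM proximally. The part of Paneth cells in the Itln1 level was not tested.

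On chromosome 11 the 3 resistin-like genes stand in a row, and the measured genes outside the row lie far from it. In the rn4 coordinates 29289 bases separate Retnlg from Retnla, 20246 bases separate Retnla from Retnlb, and Trat1, the next gene of the table, begins 50421 bases beyond Retnlb. Of the 8 measured neighbours of the row, none was 2-fold or more higher distally and 1 was lower. Among all measured genes 3.71% were higher and 3.91% lower, so counts this small say little about the locus. The lower gene was Cd96, a lymphocyte receptor, at 0.401 FPKM distally and 2.36 FPKM proximally. Ift57, on the other side of the row, stood at 1.68 FPKM distally and 1.37 FPKM proximally.

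Around Itln1, 1 of 6 measured neighbours was 2-fold or more higher distally and 2 were lower, set against 3.71% and 3.91% of all measured genes. Next to it on one side lies F11r, a tight junction protein gene, at 176 FPKM distally and 113 FPKM proximally. On the other side lies a row of lymphocyte surface receptor genes, of which Cd48 stood at 1.63 FPKM distally and 5.85 FPKM proximally. The member on the distal side was Pvrl4, a cell adhesion gene, at 2.69 FPKM distally and 0.691 FPKM proximally. Beside Retn none of 8 measured neighbours was 2-fold apart, set against 7.62% of all measured genes.

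**Figure D5:**
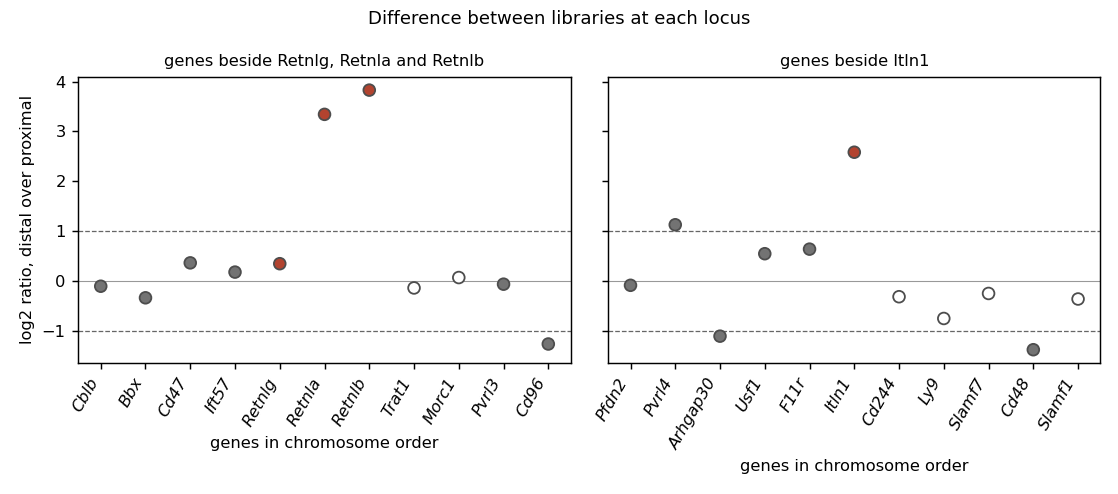
Genes are set in chromosome order, not to scale, with the log2 ratio of distal over proximal on the vertical axis, dashed lines at 2-fold, family members in red, other measured genes in grey and genes under 1 FPKM in both libraries as open circles. Retnla and Retnlb stand at 3.34 and 3.83 beside flanking genes below 1, and Itln1 stands at 2.58 above Pvrl4 at 1.13.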

How the data were processed

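RNA of distal and proximal colon crypts was analysed from 2 libraries, 1 per region, each a pool of 7 rats per the labels; the 5 ChIP libraries were not used here. The submitters' processing notes name CASAVA, TopHat2 and the build rn4 for the RNA samples, without versions. The values deposited by the authors were read as FPKM, because they are not whole, their sums differ (463340 distal, 412814 proximal) and low values step by gene. Log2 fold changes, test statistics, p-values and q-values come from the authors' deposited table, made by a program not given in the sources used here. An implied error is the size of a log2 fold change over its test statistic. Read totals are unstated, so the depth is unknown.

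Of 16492 rows, 23 marked as failed or low in data and 1 repeated gene were left out. Starts were raised by 1 base. The log2 ratio used a pseudocount of 1 FPKM, and 1 on that scale was counted as 2-fold. With 1 library per region no test was made. Genes named were the families, the 3 genes nearest in level, 5 neighbours on each side, and from 14 lists the first 2 measured genes and the 4 furthest apart, of which a selection is printed; other list genes named were chosen after their values were seen. Members and lists were chosen with earlier results of these data known. Counting was tested on simulated data. Windows were aligned in Biopython 1.88 (match 1, mismatch -2, gap opening -3, extension -1).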

Additional observations from a re-analysis of the deposited data

How the results depend on the processing

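Over 5 settings (pseudocounts of 1, 0.1 and 5 FPKM and 2 rescalings of the distal library) the log2 ratio stayed between 3.66 and 3.85 for Retnlb, 3.17 and 3.35 for Retnla, 2.41 and 2.58 for Itln1, and 0.16 and 0.48 for Retnlg, each within its implied error of the value reported. The rescalings multiplied the distal values by 0.890 and 0.932, and pseudocounts move abundant genes little. The ratios could therefore hardly leave their implied errors, and nothing is read from their staying within them. Of 750 measured genes at least 2-fold apart, 365 were higher and 385 lower in the distal library (48.7% higher). A pseudocount of 5 FPKM gave 322 genes (60.9% higher), and equal upper quartiles, which moved the median log2 ratio of all measured genes to -0.06 against 0.09, gave 747 (38.3% higher). Neighbours at least 2-fold apart numbered 4 of 22 measured, 1 of 13 with 3 neighbours on each side and 7 of 44 with 10, where the number of neighbours itself differs. Of 70 recounts of the 14 lists, 15 differed by over 1.5 times from the count reported. No paired analysis was possible because each region had 1 library. The unknown depth limits Retnlg and the low markers, and no value here measures variation between rats.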
